A study of Homo sapiens with 24 samples.

Results

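The genes described here build ribosomes. The set holds 50 genes, taken by symbol from a list of ribosome biogenesis and RNA polymerase I (Pol I) genes, out of 28277 genes in each count table. The list was sorted by the step each product serves: 5 genes for transcription by Pol I, 9 for the box C/D and H/ACA ribonucleoprotein particles that modify ribosomal RNA, 20 for the small subunit (SSU), 12 for the large subunit (LSU) and 4 nucleolar genes that serve both subunits. The rule that picks them uses symbols and no measured value, though the list was drawn up with earlier results of these data known.

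Pol I transcribes the ribosomal DNA repeats in the nucleolus into a long precursor RNA. Box C/D particles, built on fibrillarin (FBL), methylate that precursor, and box H/ACA particles, built on dyskerin (DKC1), convert uridines to pseudouridine. The SSU processome and a series of LSU assembly factors then cut, fold and export the 2 subunits. Growing tumour cells make many ribosomes, and large nucleoli are a long-known feature of carcinomas.

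RNA was sequenced from PEO1 and PEO4, human ovarian adenocarcinoma lines that are respectively sensitive and resistant to cisplatin. The first pair was untreated PEO1 A (genotype WT, which in this line means BRCA2-deficient) and PEO4 A (genotype WT, BRCA2-proficient). The second pair was PEO1 B, labelled BRCA2+ because BRCA2 had been restored, and PEO4 B (genotype WT), each untreated or exposed to 5 µM PDS for 2 or 6 h. PDS is pyridostatin, a small molecule that binds G-quadruplexes, structures formed by guanine-rich DNA or RNA. Each of the 8 conditions had 3 libraries described as biological replicates. Each pair B line had a single untreated group, and no vehicle or untreated group at 2 or 6 h is listed. Changes after PDS therefore cannot be told apart from changes with time or handling. All libraries came from polyadenylated RNA of cultured lines, so the changes below are of mRNA, not of ribosomal RNA, and concern cultured stocks of these lines only. The pair A cells were grown with added sodium pyruvate and the pair B cells without it, and the library kit is given for pair A only. The pairs were counted in separate tables and were tested separately.

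Gene counts summed to between 32528913 and 63882077 per library in pair A and to between 18699929 and 43713947 in pair B. In pair B the 6 untreated libraries were shallower (18699929 to 22375644) than the 12 PDS libraries (33260167 to 43713947), and ribosomal RNA genes took 0.217% to 0.473% of their counts against 0.0164% to 0.0369% after PDS. This difference runs along with every comparison of PDS with untreated cells, and its part in them was not tested. The counts with the ribosomal RNA genes left out are given beside those comparisons. That step removes at most 0.473% of the counts of a library. It therefore cannot show the effect of depth or of any other difference between the untreated and PDS libraries. All 8 epithelial and ovarian carcinoma markers were expressed in all 24 libraries, among them PAX8 at 105 to 347 CPM (the count of a gene scaled to a common library size). Of 8 markers of other cell types, CD3E was at 0 in all 24 libraries, PTPRC reached at most 0.0418 CPM and the highest was COL1A1 at 32.7 CPM. The summed level of these 8 was 20.6 to 34.6 CPM in untreated PEO4 B, 14.3 to 17.7 at 2 h and 6.32 to 7.75 at 6 h, and its part in the results below was not tested.

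A pair of members could be measured only poorly. PWP2, an SSU processome subunit, had 0 counts in all 6 pair A libraries and between 270 and 563 in pair B, where LOC102724159, a near-identical copy on the same chromosome, differed from it by at most 4 counts in any of the 18 libraries. How reads shared by the copies were counted in each table is not given in the sources used here, and PWP2 values are uncertain. RRN3, which links Pol I to its promoter and has several pseudogenes, had only 18 to 39 counts in pair A and 69 to 196 in pair B. The other 48 members passed the filter on low counts in both tables, and PWP2 was tested in pair B only, so 49 members were tested in pair A and 50 in pair B. Several members host snoRNAs in their introns or overlap another gene (NOP56, NOP58, DKC1, TAF1D, NCL and GNL3 among them). Whether counting used strand is not given in the sources used here.

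Together the 50 genes took about the same share of all counts in PEO1 B and PEO4 B after 6 h of PDS, from different starting points. In PEO1 B they held 0.840% to 0.897% of gene counts untreated, 1.096% to 1.115% at 2 h and 1.117% to 1.124% at 6 h. In PEO4 B they held 0.642% to 0.694% untreated, 0.781% to 0.868% at 2 h and 1.086% to 1.125% at 6 h. The ranges of the lines did not overlap when untreated or at 2 h, and overlapped at 6 h. In pair A the shares were 0.729% to 0.802% in PEO1 A and 0.692% to 0.869% in PEO4 A. Because these are shares of each library, fewer transcripts of these genes and more of all others cannot be told apart.

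Per kilobase of the canonical transcript, NPM1 had the highest level of the set in every condition. NPM1 encodes nucleophosmin, an abundant histone and pre-ribosome chaperone of the nucleolus, and stood at 985 CPM per kb in untreated PEO1 B and 626 in untreated PEO4 B. The median member stood at 36.2 CPM per kb in untreated PEO1 B and 27.1 in untreated PEO4 B, and at 49.6 and 47.3 after 6 h of PDS. RRN3 was the lowest member in all 6 pair B conditions, between 0.710 and 1.27 CPM per kb.

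A promoter feature that the choice of genes did not use was found in 20 members. RefSeq promoter sequences (GRCh38.p14, 250 bases before to 50 bases after the annotated start) were matched by symbol for 42 members. The palindrome CACGTG, the E-box bound by MYC with MAX and by the USF factors, occurred in the promoters of 20 of the 42 (47.6%). It occurred in 12% of the 12445 genes that were tested in pair B and had a promoter, in 23.9% of 88 other ribosome biogenesis genes, and in 7.26% of all 35116 promoter sequences. It was present in 10 of 17 SSU members, 5 of 9 LSU members and 4 of 7 members of the box C/D and H/ACA step, and in 0 of 5 Pol I members. Other matched members among those that changed most below had no CACGTG, among them NPM1, RPP40, HEATR1, NOP56, DKC1, WDR75, POLR1A and POLR1B. Sites are shown for 6 of the members that changed most and do hold an E-box. They read 5′ to 3′ on the gene's own strand with the E-box in capitals.
FBL (chr19:39846356-39846385, minus strand, from base 7 after the start): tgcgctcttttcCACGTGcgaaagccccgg
PES1 (chr22:30591880-30591909, minus strand, from base 14 after the start): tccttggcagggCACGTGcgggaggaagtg
BYSL (chr6:41921515-41921544, plus strand, from base 29 after the start): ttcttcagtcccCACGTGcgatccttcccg
NOP10 (chr15:34343130-34343159, minus strand, from base -11): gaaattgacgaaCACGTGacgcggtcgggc
UTP20 (chr12:101280083-101280112, plus strand, from base -10): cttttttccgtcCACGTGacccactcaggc
RRP9 (chr3:51941892-51941921, minus strand, from base -5): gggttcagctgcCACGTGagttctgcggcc
Positions are those of the first base of the E-box, counted from the annotated start, and these 6 lie between base -11 and base 29. Other E-boxes lay farther out, among them a second one of NOP10 at base -170 and those of EBNA1BP2 at -237, IMP4 at -203 and UTP14A at -241. EBNA1BP2 and IMP4 each also held one nearer an annotated start, at bases 43 and 16. Both strands are covered, since the palindrome reads the same on each. Members with and without it had median log2 fold changes after PDS of 0.55 and 0.35 (PEO1 B, 2 h), 0.54 and 0.42 (PEO1 B, 6 h), 0.56 and 0.26 (PEO4 B, 2 h) and 0.92 and 0.73 (PEO4 B, 6 h), a description without a test. The members without it include all 5 Pol I members, so this split overlaps the one by step, and the 2 were not separated. Of 10 genes listed for the MYC network, 9 were tested. Between the untreated pair B lines 3 were higher and 6 lower in PEO4 B (34% and 34.6% of all genes). MYC itself was the lowest (log2 fold change -0.96). After PDS 3 were higher and 3 lower in PEO1 B at 2 h (26.4% and 26.2% of all genes), and 4 and 2 at 6 h (27% and 26%). The highest of the list there were MXD3 at 2 h (0.35) and MLX at 6 h (0.44), and MXD4 was the lowest at both times. In PEO4 B 4 were higher and 4 lower at 2 h (33.3% and 32% of all genes). MYC then had the highest log2 fold change of the list (1.02) and MXD1 the lowest (-0.88). At 6 h 5 were higher and 4 lower (34.6% and 35.2% of all genes), with MLX highest (0.97) and MXD4 lowest (-1.6). Any part of MYC in the members' changes was not tested.

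Because PDS binds G-quadruplexes, the same promoters were searched for the letters such structures need: at least 4 runs of GGG, or of CCC for the other strand, separated by 1 to 7 bases. The pattern occurred in 14 of the 42 members (33.3%), in 40.4% of the genes tested in pair B and in 14.8% of the other biogenesis genes. The members therefore did not hold it more often than expressed genes at large. Members with and without it had median log2 fold changes of 0.53 and 0.31 in PEO4 B at 2 h and 1.04 and 0.77 at 6 h. In PEO1 B the medians lay closer together, at 0.50 and 0.42 at 2 h and 0.50 and 0.45 at 6 h. This too is a description without a test. The stretches of FBL, UBTF, RPP40 and DKC1, 4 members whose changes are described in full below, are shown as examples with the runs in capitals, and a match says nothing of whether the structure forms.
FBL (chr19:39846417-39846451, minus strand, from base -72): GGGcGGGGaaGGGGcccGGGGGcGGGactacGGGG
UBTF (chr17:44220908-44220936, minus strand, from base -54): GGGcGGGcGGGcGGGcggagcGGGGcGGG
RPP40 (chr6:5004049-5004080, minus strand, from base -43): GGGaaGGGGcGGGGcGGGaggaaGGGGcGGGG
DKC1 (chrX:154762801-154762831, plus strand, from base -63): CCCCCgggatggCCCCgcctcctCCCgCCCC

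**Figure D1:**
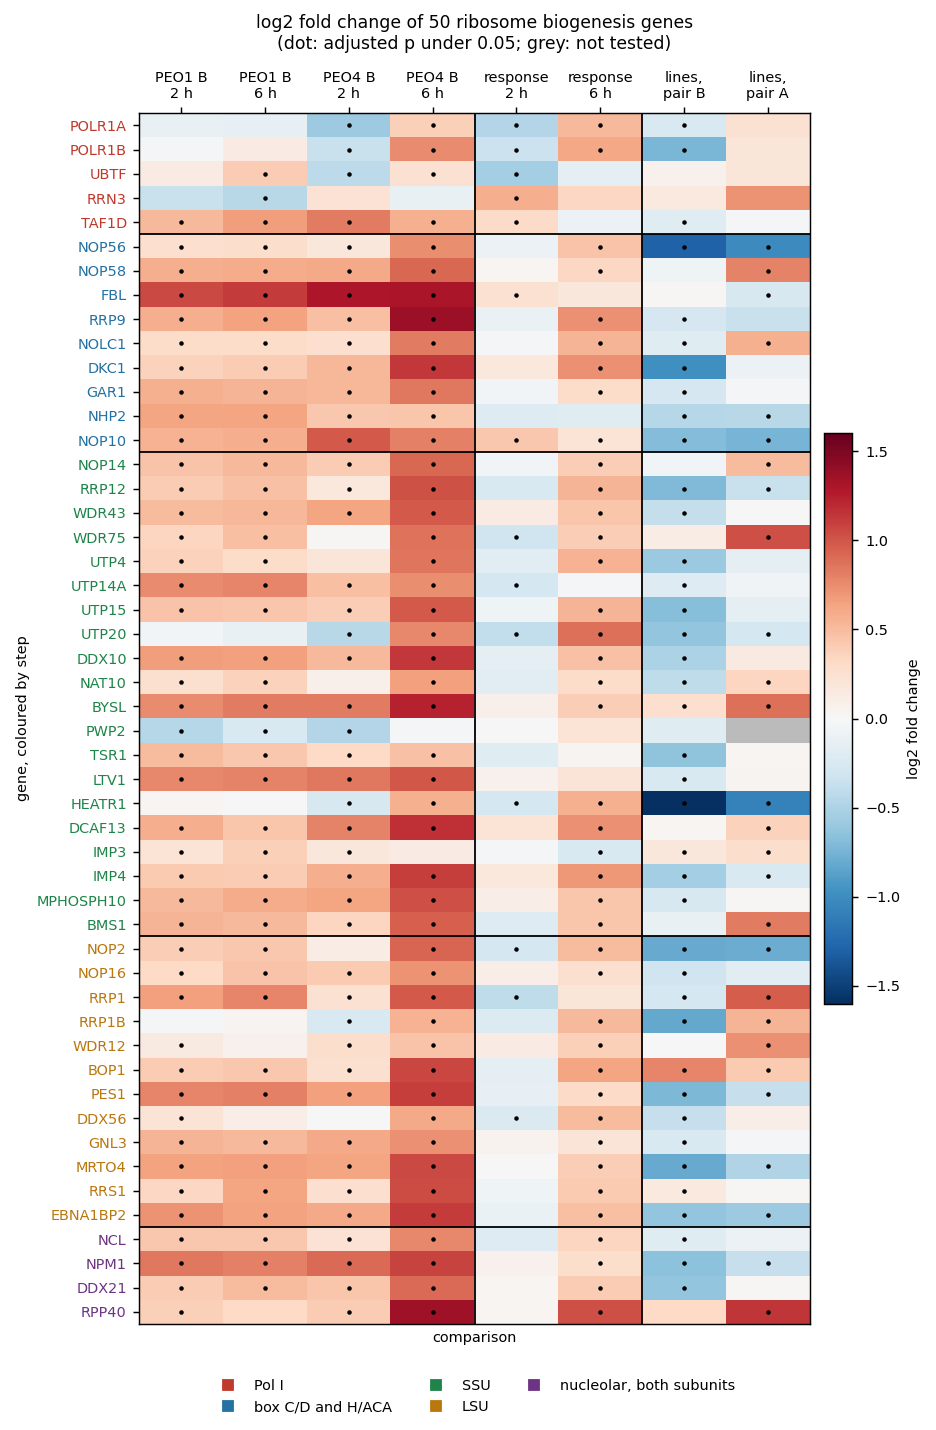
Each row is 1 of the 50 genes, coloured by step, and each column 1 comparison; colour gives the log2 fold change, a dot an adjusted p under 0.05, and grey the untested PWP2 in pair A. The first 4 columns set PDS against untreated cells of the same line, the response columns give the PEO4 B change minus the PEO1 B change, and the last 2 set untreated PEO4 against PEO1; the column for PEO4 B at 6 h holds 47 dots, all for higher genes.

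Most of the set rose within 2 h of PDS in PEO1 B and stayed there. At an adjusted p under 0.05 (edgeR's quasi-likelihood test, Benjamini-Hochberg over all 17020 genes of the table), 42 of 50 members were higher at 2 h, where 26.4% of all genes were higher, and 1 was lower, where 26.2% of all genes were. At 6 h 40 members were higher against 27% of all genes and 2 were lower against 26%. The members' median log2 fold change was 0.43 at 2 h and 0.47 at 6 h, and that of all genes -0.03 at both times. Both times were set against the same 3 untreated libraries. With the ribosomal RNA genes left out the counts were 42 and 1 at 2 h and 40 and 2 at 6 h.

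FBL, the methyltransferase of box C/D particles, rose most in PEO1 B. Its 3 untreated libraries held 151, 154 and 153 CPM, those at 2 h 335, 315 and 301, and those at 6 h 333, 353 and 311. The untreated and treated libraries lay far apart, while those at 2 and 6 h overlapped. The log2 fold change was 1.05 (SE 0.06, adjusted p = 1.5e-12) at 2 h and 1.12 (SE 0.06, adjusted p = 4.8e-13) at 6 h, about a doubling.

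NPM1 and PES1 followed the same course at a smaller size. NPM1 held 1412, 1212 and 1278 CPM untreated and 2423, 2318 and 2234 at 2 h, without overlap (log2 fold change 0.84, SE 0.06, adjusted p = 9.5e-11). PES1, which with BOP1 and WDR12 forms the PeBoW complex of LSU assembly, held 113, 106 and 118 CPM untreated and 200, 194 and 184 at 2 h (log2 fold change 0.78, SE 0.07, adjusted p = 7.7e-10). BYSL, a factor that accompanies the nascent SSU, held 29.2, 29.0 and 30.5 CPM untreated and 52.4, 55.9 and 50.2 at 6 h. Its log2 fold change of 0.84 (SE 0.07, adjusted p = 7.4e-10) was the second largest at 6 h.

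Few of the 5 Pol I members were called in PEO1 B. TAF1D, a subunit of the SL1 promoter factor, was the one higher at 2 h, from 69.7, 68.3 and 63.5 CPM to 97.7, 101 and 90.6 (log2 fold change 0.52, SE 0.07, adjusted p = 9.2e-07). UBTF, the upstream binding factor that opens the ribosomal DNA promoter, was higher at 6 h (log2 fold change 0.40, SE 0.06, adjusted p = 2.6e-06). The catalytic subunits POLR1A and POLR1B were called at neither time. POLR1A held 137, 143 and 148 CPM untreated, 124, 130 and 141 at 2 h and 129, 121 and 140 at 6 h, and the last 2 groups overlapped the first. Pol I genes outside the set moved more often, with 13 of 16 tested higher and 0 lower at both times and median log2 fold changes of 0.38 at 2 h and 0.51 at 6 h. Their list includes POLR1C, POLR1D, POLR2E, POLR2F, POLR2H, POLR2K and POLR2L, subunits that Pol I shares with other RNA polymerases.

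The 2 members that were lower in PEO1 B are the 2 measured poorly. PWP2 fell from 13.99, 15.3 and 16.4 CPM to 9.98, 12.1 and 11.1 at 2 h, and both PWP2 and RRN3 were called lower at 6 h with log2 fold changes of -0.25 (SE 0.10, adjusted p = 0.034) and -0.45 (SE 0.16, adjusted p = 0.023). Both lost the call without untreated replicate 2 or 6 h replicate 2, RRN3 also without 6 h replicate 3, and PWP2 also without untreated replicate 3 or 6 h replicate 1. At 2 h 2 members were lower without 2 h replicate 3. With library totals in place of TMM, 5 members were lower at 6 h and 4 at 2 h. Between 2 and 6 h 2 of 50 members rose further, RRS1 (log2 fold change 0.29, SE 0.06, adjusted p = 0.0032) and UBTF (0.27, SE 0.06, adjusted p = 0.0044), where 3.96% of all genes were higher. By edgeR 0 members were lower, 0 at an unadjusted p under 0.05 and 0 by DESeq2, where 2.98% of all genes were.

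**Figure D2:**
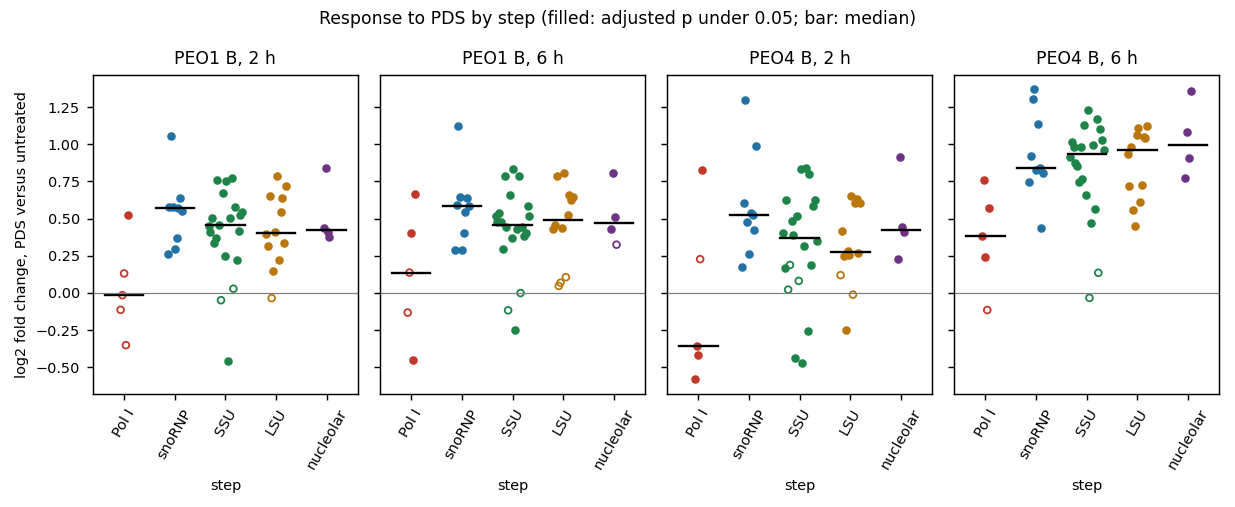
Each panel gives the log2 fold change of PDS against untreated cells for 1 line and time, with 1 point per gene by step (snoRNP: box C/D and H/ACA), filled where the adjusted p was under 0.05, and a bar at the step's median. In PEO4 B the Pol I median is -0.36 at 2 h and 0.38 at 6 h, while every other step has a positive median at both times in both lines.

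In PEO4 B the set split at 2 h. Here 37 members were higher, where 33.3% of all genes were, and 7 were lower, where 32% of all genes were. The members' median log2 fold change was 0.40 against 0.00 for all genes. All 9 members of the box C/D and H/ACA step rose, as did 14 of 20 SSU, 9 of 12 LSU and all 4 nucleolar members. In the Pol I step 1 of 5 rose and 3 fell. With the ribosomal RNA genes left out 35 were higher and 7 lower, and with library totals 30 and 8.

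FBL again rose most, from 155, 160 and 151 CPM to 383, 362 and 399 at 2 h (log2 fold change 1.296, SE 0.06, adjusted p = 3.4e-15). The 3 libraries at 6 h held 374, 371 and 406 CPM and overlapped those at 2 h. NOP10, the small core protein of H/ACA particles, rose from 50.7, 48.5 and 48.4 CPM to 95.4, 97.0 and 100 at 2 h (log2 fold change 0.99, SE 0.06, adjusted p = 1.5e-13). It was then lower at 6 h than at 2 h, at 84.1, 85.7 and 88.1 CPM (log2 fold change -0.18, SE 0.05, adjusted p = 0.0053). NPM1 rose at 2 h by 0.91 on the log2 scale (SE 0.06, adjusted p = 4.2e-12) and TAF1D by 0.83 (SE 0.07, adjusted p = 2.3e-10).

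The mRNAs of the 2 largest Pol I subunits were among those that fell at 2 h. POLR1A, the largest Pol I subunit, held 110, 124 and 128 CPM untreated and 81.9, 67.8 and 92.3 at 2 h. The groups did not overlap (log2 fold change -0.58, SE 0.09, adjusted p = 4e-06). POLR1B, the second largest subunit, fell from 48.9, 45.0 and 50.7 CPM to 40.4, 31.1 and 41.3 (log2 fold change -0.36, SE 0.08, adjusted p = 0.00026). UBTF fell from 195, 194 and 184 CPM to 148, 134 and 147 (log2 fold change -0.42, SE 0.06, adjusted p = 7.6e-07).

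The others that fell were 3 SSU members and 1 LSU member. UTP20, a very large processome scaffold, fell from 78.6, 87.9 and 70.5 CPM to 58.8, 47.1 and 68.4 (log2 fold change -0.44, SE 0.10, adjusted p = 0.0011). HEATR1, a processome subunit also needed for Pol I transcription, fell by 0.26 on the log2 scale (SE 0.06, adjusted p = 0.0011) and RRP1B, an LSU factor, by 0.25 (SE 0.07, adjusted p = 0.0017). PWP2 was the seventh, with a log2 fold change of -0.47 (SE 0.10, adjusted p = 0.00019) and the doubt about its copy. None of the 7 lost its call with any 1 library left out.

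By 6 h nearly the whole set was above its untreated level in PEO4 B. At 6 h 47 members were higher, where 34.6% of all genes were, and 0 were lower, where 35.2% of all genes were. The 0 stood by edgeR at an unadjusted p under 0.05 and by DESeq2. Past a log2 fold change of 1, 16 members were higher, where 6.26% of all genes were. The members had a median of 0.89 on the log2 scale against -0.03 for all genes, or 0.73 against -0.19 with library totals. With the ribosomal RNA genes left out the counts stayed at 47 and 0.

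RRP9, which recognises the U3 snoRNA, rose most at 6 h. It went from 22.2, 24.7 and 18.8 CPM untreated through 30.4, 26.8 and 34.0 at 2 h to 55.0, 54.6 and 60.3 at 6 h (6 h against untreated, log2 fold change 1.37, SE 0.11, adjusted p = 4.8e-10). RPP40, a protein of the RNase P and RNase MRP particles, went from 8.88, 12.2 and 7.74 CPM to 25.1, 24.3 and 23.9 (log2 fold change 1.36, SE 0.13, adjusted p = 3.8e-09). FBL had a log2 fold change of 1.305 (SE 0.06, adjusted p = 2.2e-15). The libraries at 6 h lay above all untreated libraries for each of the 3.

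The core proteins of the other particles rose along with them. DKC1, the pseudouridine synthase, went from 125, 124 and 115 CPM to 262, 265 and 273 (log2 fold change 1.14, SE 0.06, adjusted p = 2.1e-14). NOP56 and NOP58, the paired box C/D scaffold proteins, rose by 0.74 (SE 0.07, adjusted p = 1.6e-09) and 0.92 on the log2 scale, and NOLC1, a chaperone of both particle types, by 0.83 (SE 0.06, adjusted p = 1.1e-11). In the PeBoW complex PES1 rose by 1.11 (SE 0.07, adjusted p = 3.9e-13), BOP1 by 1.07 (SE 0.07, adjusted p = 3.7e-12) and WDR12 by 0.45 (SE 0.06, adjusted p = 3.6e-07). NCL, nucleolin, rose from 1372, 1363 and 1273 CPM to 2242, 2218 and 2384 (log2 fold change 0.77, SE 0.07, adjusted p = 1.8e-10).

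The genes that had fallen at 2 h turned round. Between 2 and 6 h in PEO4 B 43 members rose, where 28.9% of all genes did, and 3 fell, where 31.3% did, and this comparison uses no untreated library. The largest changes were those of UTP20 (log2 fold change 1.21, SE 0.10, adjusted p = 1.5e-08), POLR1B (1.11, SE 0.07, adjusted p = 1.6e-11) and POLR1A (0.97, SE 0.09, adjusted p = 4.6e-09). At 6 h POLR1A held 157, 153 and 163 CPM and POLR1B 80.0, 81.1 and 83.6, above all of their untreated libraries. UTP20 held 132, 134 and 137 CPM, and HEATR1 104, 103 and 104. The 3 that fell between 2 and 6 h were RRN3 (log2 fold change -0.34, SE 0.14, adjusted p = 0.043), TAF1D (-0.26, SE 0.07, adjusted p = 0.0022) and NOP10. The RRN3 call was lost with DESeq2 and without any 1 of replicates 2 and 3 at 2 h and replicates 1, 2 and 3 at 6 h.

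The 3 members not called at 6 h in PEO4 B were RRN3, PWP2 and IMP3. IMP3, which helps U3 pair with the precursor RNA, held 70.5, 77.5 and 61.8 CPM untreated and 74.7, 76.0 and 79.6 at 6 h, and the groups overlapped. RRN3 held 3.72, 4.27 and 4.10 CPM untreated and 3.77, 3.54 and 3.83 at 6 h. By mean level, 45 of 50 members peaked at 6 h in PEO4 B, against 28 in PEO1 B, where 18 peaked at 2 h. In PEO1 B 48 of 50 were not called between 2 and 6 h (median log2 fold change 0.02). Its peak times therefore mostly rank levels that were not told apart. The share of all genes peaking at each time was not computed.

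**Figure D3:**
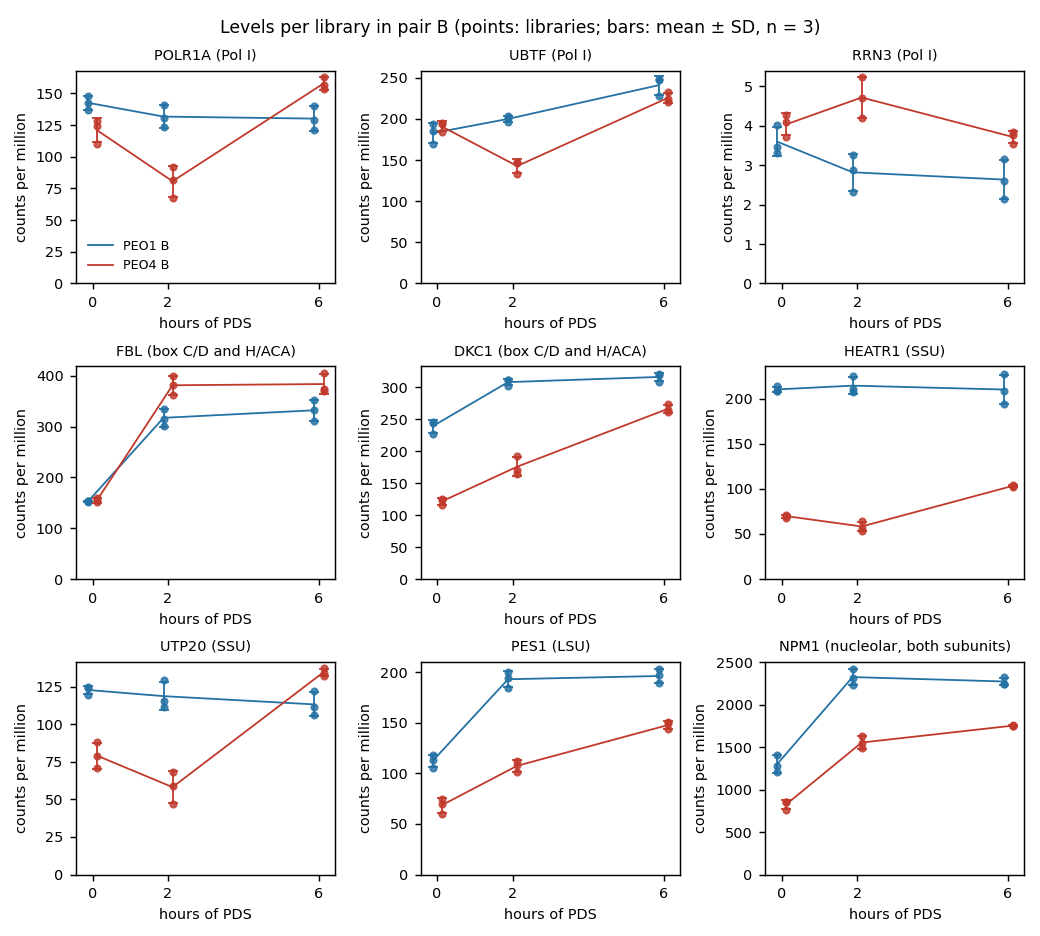
CPM of 9 genes against hours of PDS, with 1 point per library, bars for mean ± SD (n = 3), lines through the means and axes from 0; PEO1 B is blue and PEO4 B red. POLR1A, UBTF, HEATR1 and UTP20 dip at 2 h in PEO4 B (POLR1A to 67.8 to 92.3 CPM) and lie above their untreated libraries at 6 h, while FBL reaches its 6 h level by 2 h in both lines.

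The responses of the lines were compared directly by the interaction of line and treatment. At 2 h the PEO4 B response exceeded that of PEO1 B for 4 members, where 19.3% of all genes did so, and fell short for 10, where 18% did so. As shares of 50 members, the first lies well under that of all genes and the second close to it. The median difference in log2 fold change was -0.07. The 10 were POLR1A, POLR1B, UBTF, WDR75, UTP14A, UTP20, HEATR1, NOP2, RRP1 and DDX56. UBTF had the largest difference (-0.55, SE 0.08, adjusted p = 8.9e-06), followed by POLR1A (-0.47, SE 0.12, adjusted p = 0.004) and RRP1, an LSU processing factor (-0.41, SE 0.10, adjusted p = 0.0018). The 4 were RRN3 (0.58, SE 0.22, adjusted p = 0.042), NOP10 (0.44, SE 0.08, adjusted p = 8.3e-05), TAF1D (0.30, SE 0.10, adjusted p = 0.017) and FBL (0.24, SE 0.08, adjusted p = 0.024). Single libraries decided these counts. Without PEO1 B untreated replicate 2 they were 2 and 6, and without PEO4 B untreated replicate 2 they were 6 and 7. The 10 became 17 without PEO4 B untreated replicate 3 or without PEO4 B 2 h replicate 3. The 4 became 2 without either of replicates 2 and 3 of PEO1 B at 2 h, and also without PEO4 B 2 h replicate 3. By gene, the RRN3 call was lost without any 1 of 8 of the 12 libraries and with DESeq2, and the UTP20 call without any 1 of 9. FBL lost it without any 1 of 4, TAF1D without any 1 of 3, and UBTF, POLR1A, POLR1B, HEATR1, NOP10 and RRP1 kept it with any 1 library left out.

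At 6 h the responses of the lines differed across the set. The rise was larger in PEO4 B for 39 members, where 24.4% of all genes differed this way, and smaller for 1, where 23% did. The median difference in log2 fold change was 0.40 for the members and 0.01 for all genes. RPP40 had the largest difference (1.03, SE 0.19, adjusted p = 0.00014), then UTP20 (0.89, SE 0.14, adjusted p = 6.5e-05) and DKC1 (0.73, SE 0.08, adjusted p = 1e-07). In PEO1 B RPP40 held 8.77, 6.32 and 7.99 CPM untreated and 9.33, 9.76 and 9.71 at 6 h. The 1 smaller member was IMP3 (-0.25, SE 0.10, adjusted p = 0.043), whose call was lost when any 1 of 8 libraries was left out. The count of smaller members was 0 without any 1 of 7 libraries and 2 without PEO1 B 6 h replicate 3 or PEO4 B untreated replicate 3. Leaving out a library kept the 39 between 36 and 41.

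Before treatment the set was lower in PEO4 B than in PEO1 B. Of 50 members 35 were lower, where 34.6% of all genes were, and 4 were higher, where 34% of all genes were. The median log2 fold change was -0.28 for the members and 0.00 for all genes. This comparison and the 6 h responses share the untreated libraries of both lines. Past a log2 fold change of 1, 2 members were lower, against 12.6% of all genes. HEATR1 had the largest difference, with 209, 209 and 214 CPM in PEO1 B and 68.1, 70.1 and 71.4 in PEO4 B, about 3.02-fold lower (log2 fold change -1.59, SE 0.06, adjusted p = 9e-17). NOP56 held 280, 261 and 272 CPM in PEO1 B and 109, 122 and 102 in PEO4 B (log2 fold change -1.29, SE 0.07, adjusted p = 5e-14). DKC1 was lower by a log2 fold change of -0.98 (SE 0.06, adjusted p = 1.8e-13). BOP1 went the other way, with 114, 115 and 132 CPM in PEO1 B and 205, 227 and 191 in PEO4 B (log2 fold change 0.79, SE 0.07, adjusted p = 9.2e-10). BYSL, IMP3 and RRS1 were the other 3 higher members, and the last 2 lost the call with only the 2 groups in the fit.

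After 6 h of PDS the members were no longer lower in PEO4 B on balance, though single members still differed in both directions. The median over members of the log2 ratio of mean CPM, PEO4 B to PEO1 B, was -0.28 untreated, -0.39 at 2 h and -0.04 at 6 h, against 0.00, 0.02 and 0.00 for all genes. The ratio was below 0 for 40 members untreated and for 27 at 6 h. The median absolute log2 ratio moved less, from 0.321 untreated to 0.255 at 6 h, and 20 members untreated and 10 at 6 h differed by more than 0.5 on the log2 scale. HEATR1 was 1 of the 10, with 209, 195 and 228 CPM in PEO1 B against 104, 103 and 104 in PEO4 B. This comparison was chosen after the values were seen and was not tested.

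In pair A, where PEO1 lacks BRCA2 function, the set was balanced. Of 49 tested members 14 were higher in PEO4 A, where 30.1% of all genes were, and 13 were lower, where 31.6% of all genes were. The median log2 fold change was 0.01 for the members and -0.01 for all 15882 genes. Past a log2 fold change of 1, 2 members were higher against 12.6% of all genes and 2 lower against 13.1%. The shares of the members did not exceed those of all genes. In the Pol I step 0 of 5 were called by edgeR in either direction, 0 at an unadjusted p under 0.05 and 0 by DESeq2. Without PEO4 A replicate 1, whose members' summed share was the highest of its group, 19 were lower.

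HEATR1 and NOP56 had the lowest log2 fold changes in both pairs. HEATR1 held 146, 165 and 152 CPM in PEO1 A and 79.3, 68.0 and 70.6 in PEO4 A (log2 fold change -1.08, SE 0.08, adjusted p = 1.8e-07). NOP56 held 200, 228 and 239 CPM in PEO1 A and 133, 99.6 and 96.5 in PEO4 A (log2 fold change -1.02, SE 0.12, adjusted p = 2.2e-05). NOP2, the methyltransferase of the large ribosomal RNA, followed with -0.79 (SE 0.15, adjusted p = 0.0015). The highest were RPP40 with 3.81, 4.27 and 5.52 CPM in PEO1 A and 9.41, 10.3 and 10.5 in PEO4 A (log2 fold change 1.14, SE 0.16, adjusted p = 5.4e-05), WDR75, an SSU processome subunit (1.04, SE 0.09, adjusted p = 8.9e-07), and RRP1 (0.97, SE 0.10, adjusted p = 3.9e-06).

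The 2 pairs share no library, so their calls can be set side by side. Of 27 members called in pair A and 39 called in pair B, 19 were called in both, and 15 of these had the same direction, which is 55.6% of the pair A calls and 38.5% of the pair B calls. Over all 15396 genes tested in both tables the same shares were 68.8% and 60.3%. Of those genes 3348 were lower in PEO4 in both pairs, 3192 higher in both, and 407 higher in PEO4 A and lower in PEO4 B. Among genes called in both pairs, 87.6% had the same direction, against 78.9% of the members called in both. The 12 members lower in PEO4 in both pairs, out of 49 tested in both, were NOP56, NHP2, NOP10, RRP12, UTP20, HEATR1, IMP4, NOP2, PES1, MRTO4, EBNA1BP2 and NPM1, and the 3 higher were BYSL, IMP3 and BOP1. Of these, IMP3 lost its pair A call without PEO1 A replicate 1, and UTP20 lost it without any 1 of replicates 2 and 3 of either line. A further 4 were higher in PEO4 A and lower in PEO4 B: NOLC1, NAT10, RRP1 and RRP1B. RRP1B was the widest apart of these, with log2 fold changes of 0.54 (SE 0.11, adjusted p = 0.0014) and -0.82 (SE 0.06, adjusted p = 3.8e-11). BRCA2 status of PEO1, growth medium, sequencing depth and the share of ribosomal RNA counts all differ between the untreated pairs, which were also counted in separate tables. These differences cannot be told apart here.

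**Figure D4:**
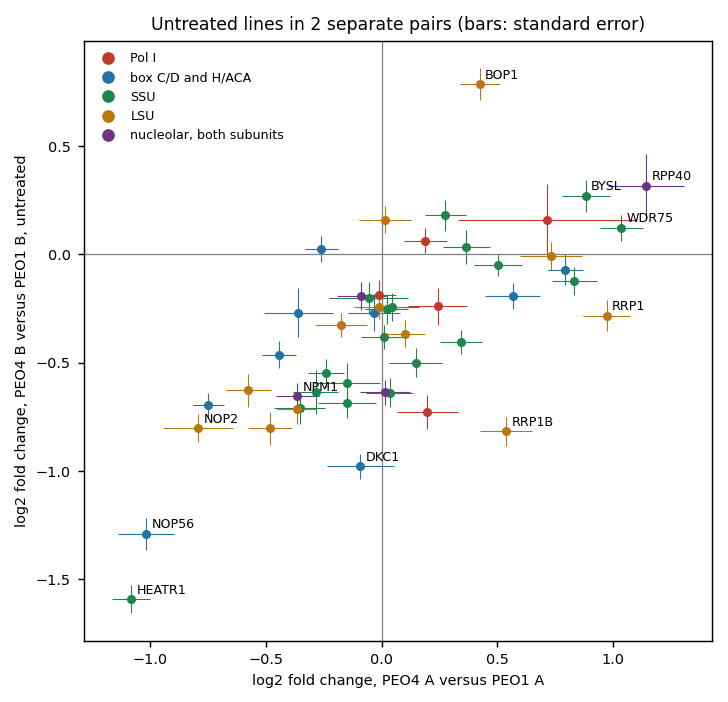
Each point is 1 of the 49 genes tested in both pairs, with the log2 fold change of untreated PEO4 to PEO1 in pair A on the x axis and in pair B on the y axis, standard errors as bars and colour for the step. HEATR1 (-1.08, -1.59) and NOP56 (-1.02, -1.29) lie at the lower left, and RRP1 (0.97, -0.28) and RRP1B (0.54, -0.82) at the lower right.

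Members that fell or did not rise at 2 h tended to have long transcripts. Among the 8 members with a canonical transcript (GENCODE release 44) over 5 kb, the median log2 fold change in PEO4 B at 2 h was -0.25, with 3 higher and 5 lower. The median of all 3938 genes of that length was -0.16. Among the 19 members under 2 kb it was 0.60, with 18 higher and 0 lower, and the median of all 4761 such genes was 0.16. Long genes at large thus also lay lower than short ones. The share of all genes called in each length class was not computed. POLR1A (12480 bases), UTP20 (9031), HEATR1 (8459) and POLR1B (7527) are among the longest, while WDR12 (8068) and BMS1 (7759), an SSU GTPase, rose. Across the 50 members Spearman's correlation of log2 fold change with length was -0.61, and across 16032 genes of the table with a length it was -0.14. The same correlations were -0.51 and -0.11 in PEO1 B at 2 h, and -0.54 and -0.14 at 6 h. At 6 h in PEO4 B it was -0.32 for the members and -0.03 for all genes, and all 8 of the long members were higher. Their median log2 fold change was then 0.66, against -0.07 for all genes over 5 kb. These are correlations across genes of the same libraries, which are not independent replicates, and no test was run.

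**Figure D5:**
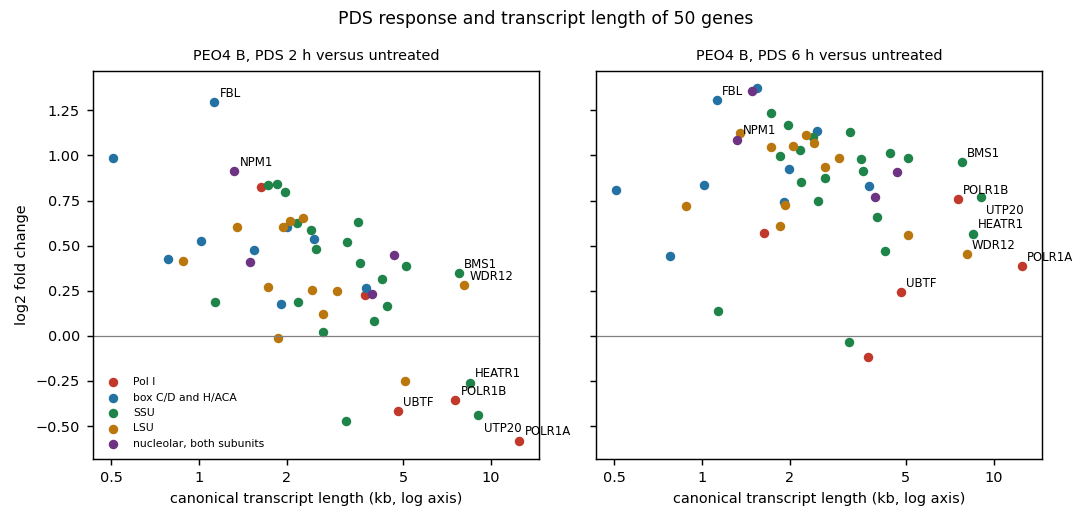
Log2 fold change of PDS against untreated PEO4 B at 2 h (left) and 6 h (right) against canonical transcript length on a log axis, with 1 point per gene coloured by step. At 2 h 5 of the 8 genes over 5 kb lie below 0 (POLR1A at -0.58), WDR12 and BMS1 lie above it, and FBL lies at 1.296; at 6 h all 8 genes over 5 kb lie above 0.

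Ribosome biogenesis genes outside the set were counted to see how far the pattern reached. The list held 106 further genes of the same steps, chosen with the earlier results known, of which 101 were tested. In PEO1 B 81 were higher and 4 lower at 2 h (26.4% and 26.2% of all genes) and 81 and 2 at 6 h (27% and 26%). In PEO4 B 69 were higher and 7 lower at 2 h (33.3% and 32% of all genes), and 95 and 4 at 6 h (34.6% and 35.2%), with median log2 fold changes of 0.39 and 0.77. The 6 h response was larger in PEO4 B for 65 of them and smaller for 5 (24.4% and 23% of all genes). Untreated, 12 were higher and 70 lower in PEO4 B (34% and 34.6% of all genes). In PEO4 A 22 were higher and 37 lower (30.1% and 31.6% of all genes). For the further Pol I genes alone 11 of 16 were higher and 2 lower in PEO4 B at 2 h, while POLR1A, POLR1B and UBTF fell. The further genes include the shared subunits named above, and ranged from MYBBP1A (log2 fold change -0.35) to TTF1 (0.97).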

How the data were processed

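The authors checked reads with FastQC, trimmed them with fastp, aligned them to hg38 with STAR and counted them with featureCounts, as the submitters' processing notes list without versions. The annotation and the strand setting are not given in the sources used here. The deposited values are whole-number counts per gene, not normalized. Lines without readable counts were left out (2 in the pair A table, 1 in the pair B table).

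The 2 tables were tested separately in R 4.3.3 with edgeR 4.0.16: filterByExpr (minimum count 10, minimum total 15), TMM scaling, and a robust quasi-likelihood fit of 1 mean per condition over all libraries of a table. This kept 15882 and 17020 genes, with common dispersions of 0.0129 and 0.00502 and 4 and 12 residual degrees of freedom. Calls needed an adjusted p under 0.05 (Benjamini-Hochberg), and calls past a log2 fold change of 1 were counted as well, since the study's threshold was taken to be in log2 units. CPM use TMM library sizes. On simulated data 84 of 100 genes changed 1.5-fold and 100 of 100 changed 2-fold were recovered for pair A (15691 genes, 11 false calls), and 70 and 96 of 100 for PEO4 B at 6 h (16607 genes, 9 false calls). The simulation gave all genes the same dispersion and no difference between conditions other than the added changes. Its counts therefore check the code and do not measure recovery or false calls in these data.

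The named genes are, per comparison, the 3 called members with the largest and the 3 with the smallest log2 fold change among those whose libraries do not overlap (interactions by size alone), and 17 anchor genes: POLR1A, POLR1B, UBTF, RRN3, TAF1D, FBL, NOP56, NOP58, DKC1, NCL, NPM1, NOLC1, HEATR1, UTP20, BOP1, PES1 and WDR12. Others named were chosen after their values were seen. The members and lists were chosen with earlier results of these data known. Replicates differed by more than sampling noise. Deviations of log CPM from the group mean correlated between -0.185 and 0.16 for same-numbered replicates of different groups. The numbers were therefore not taken to pair samples. Transcript lengths are of GENCODE release 44, and positions and promoters are of RefSeq, GRCh38.p14. Alternatives were other scalings (library totals, DESeq2 size factors, upper quartile), DESeq2 1.42.0, other filters (none; CPM of at least 1 in 3 libraries), ribosomal RNA genes left out, a replicate block, only the groups compared, an adjusted p under 0.01, and each library left out.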

Additional observations from a re-analysis of the deposited data

Results flagged for a closer look

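The responses of PEO4 B and PEO1 B to PDS were compared by the interaction test of edgeR. At 2 h 4 members responded more in PEO4 B, where 19.3% of all genes did, and 10 less, where 18% did. As shares of 50 members, the first lies well under that of all genes and the second close to it. Among them were RRN3 (difference in log2 fold change 0.58), NOP10 (0.44), TAF1D (0.30), UBTF (-0.55), POLR1A (-0.47) and RRP1 (-0.41). At 6 h 39 responded more, where 24.4% of all genes did, and 1 less, where 23% did. Among these were RPP40 (1.03), UTP20 (0.89), DKC1 (0.73) and IMP3 (-0.25). The adjusted p-values stand in the report. The effect of leaving out single libraries stands there too. Groups of 3 libraries are too small for the test of a library far from the others of its group.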

How the results depend on the processing

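Members called in every comparison kept their direction: of 5403 values of 344 called member and comparison pairs under the alternatives, 0 reversed, 5201 stayed past the threshold and 202 did not, in 45 of the pairs. For untreated PEO4 B against PEO1 B the higher members went from 4 to 2 with only the groups compared and to 2 at an adjusted p under 0.01. For PEO1 B at 2 h the lower members went from 1 to 4 with library totals and 2 with the upper quartile, and to between 1 and 2 with a library left out. For PEO1 B at 6 h they went from 2 to 5 with library totals, 1 without a filter, 0 at an adjusted p under 0.01 and between 0 and 2 with a library left out. For PEO1 B at 6 against 2 h 1 rather than 0 was lower with only the groups compared. For the 2 h difference between the lines, 1 higher and 4 lower were called at an adjusted p under 0.01, DESeq2 called 3 and 15, a CPM filter gave 4 and 15, and leaving out a library gave 2 to 6 and 6 to 17. For the 6 h difference the 1 lower member became 2 with library totals, 2 with the upper quartile, 0 without a filter, 0 without ribosomal RNA genes, 0 at an adjusted p under 0.01 and 0 to 2 with a library left out. The cause of these shifts was not tested. Library totals moved the median of all genes after PDS to between -0.13 and -0.19. The replicate block, whose numbers only name samples, moved no count by more than 1 (higher at 2 h in PEO4 B, 36 against 37), and the blocked fits changed no direction. RRN3 had the fewest counts of the members tested in pair B, 69 to 196 per library.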
